A study of Danio rerio with 9 samples.

Results

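The enzymes described here modify and crosslink collagen. They are the prolyl 4-hydroxylase alpha subunits p4ha1a, p4ha1b and p4ha2, their beta subunit p4hb, the oxidase ero1a, the lysyl hydroxylase plod2 and the lysyl oxidases loxa and loxl2b. The 8 genes, of 12858 with a symbol, were chosen by name, with earlier results of these data known. Every probe whose RefSeq accession led to 1 of these symbols was taken, 20 of the 43603 probes on the array. Total RNA came from Tuebingen zebrafish, as whole embryos, at 12 hours post fertilization (hpf). Each embryo had received mRNA coding for Hif-1α, for Hif-3α or, as the control, for green fluorescent protein (GFP). Hif-1α and Hif-3α are alpha subunits of the hypoxia-inducible factor, a transcription factor stabilised when oxygen is low. Each group had 3 one-colour arrays, each from a pool of 60 embryos, and the replicates came from 3 independent injection experiments. Arrays with the same replicate number are treated as 1 experiment here, which the labels do not state. All groups are injected embryos, and no uninjected embryos were among the samples analysed here. The mRNA was injected into the embryo and not driven by a promoter in 1 cell type, and neither protein nor its place in the embryo was measured here. In such whole-embryo pools, fewer cells of a type and less RNA per cell cannot be told apart.

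Collagen chains are hydroxylated inside the endoplasmic reticulum. Prolyl 4-hydroxylase, built of alpha and beta subunits, uses oxygen, iron, 2-oxoglutarate and ascorbate to make the hydroxyproline that holds the triple helix together, and its beta subunit is protein disulfide isomerase. Ero1a oxidises that isomerase again after it has formed disulfide bonds. Plod2 hydroxylates lysines in the ends of the chains, and the copper enzymes of the lysyl oxidase family, among them Loxa and Loxl2b, turn such lysines into the aldehydes that crosslink collagen outside the cell. Several of these genes are known targets of the hypoxia-inducible factor in mammals. No sequences or genome positions are given for the probes.

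A level is a probe's log2 processed signal relative to the 75th percentile on the same array, so that 0 is that percentile and 1 unit is a 2-fold difference. Levels are compared between groups for the same probe only. Differences are given with their standard error (SE), from 3 arrays a group. Adjusted p-values are from limma, two-sided, over the 31116 probes that every array of 1 or more groups measured well above background. A probe passed when its adjusted p was under 0.05. Between 68.6% and 75.3% of the probes were well above background on each array, and the correlation between any 2 arrays lay between 0.946 and 0.991. The signal at the 75th percentile was 503, 614 and 565 on the Hif-1α arrays, 591, 790 and 694 on the Hif-3α arrays and 770, 826 and 798 on the control arrays. Scaling to it therefore added to every Hif-1α difference from controls. Of 4 probes named hif1al, the gene whose synonym is Hif-3alpha, 3 were higher by 5.87 to 8.51 log2 units in the Hif-3α embryos than in controls, which matches the label of that group. No probe could be matched to hif1aa or hif1ab, so the injected Hif-1α mRNA was not checked.

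In the Hif-1α embryos, 6 of the 15 member probes tested rose against controls and 0 fell, which covers 4 of the 7 member genes tested. The genes that rose were ero1a, p4ha1b, p4ha2 and plod2. The beta subunit p4hb and the alpha subunit p4ha1a did not pass on any probe, loxl2b was higher without passing, and loxa was too dim to test. Over all probes tested, 4.97% passed upward in the same comparison. The median difference of the 15 member probes was 0.70, and that of all 31116 probes was -0.02. On 8 of the 15 member probes every Hif-1α array lay above every control array, against 16.8% of all probes. The members were chosen with earlier results of these data known, and several of the 15 probes share a gene. Setting them beside all probes is therefore a description and not a test of the set. In the Hif-3α embryos 0 of the 15 probes passed with limma against controls, where 0.0321% of all probes passed in either direction. An unadjusted p under 0.05 was found for 3 of the 15 and for 1826 of all 31116 probes.

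**Figure D1:**
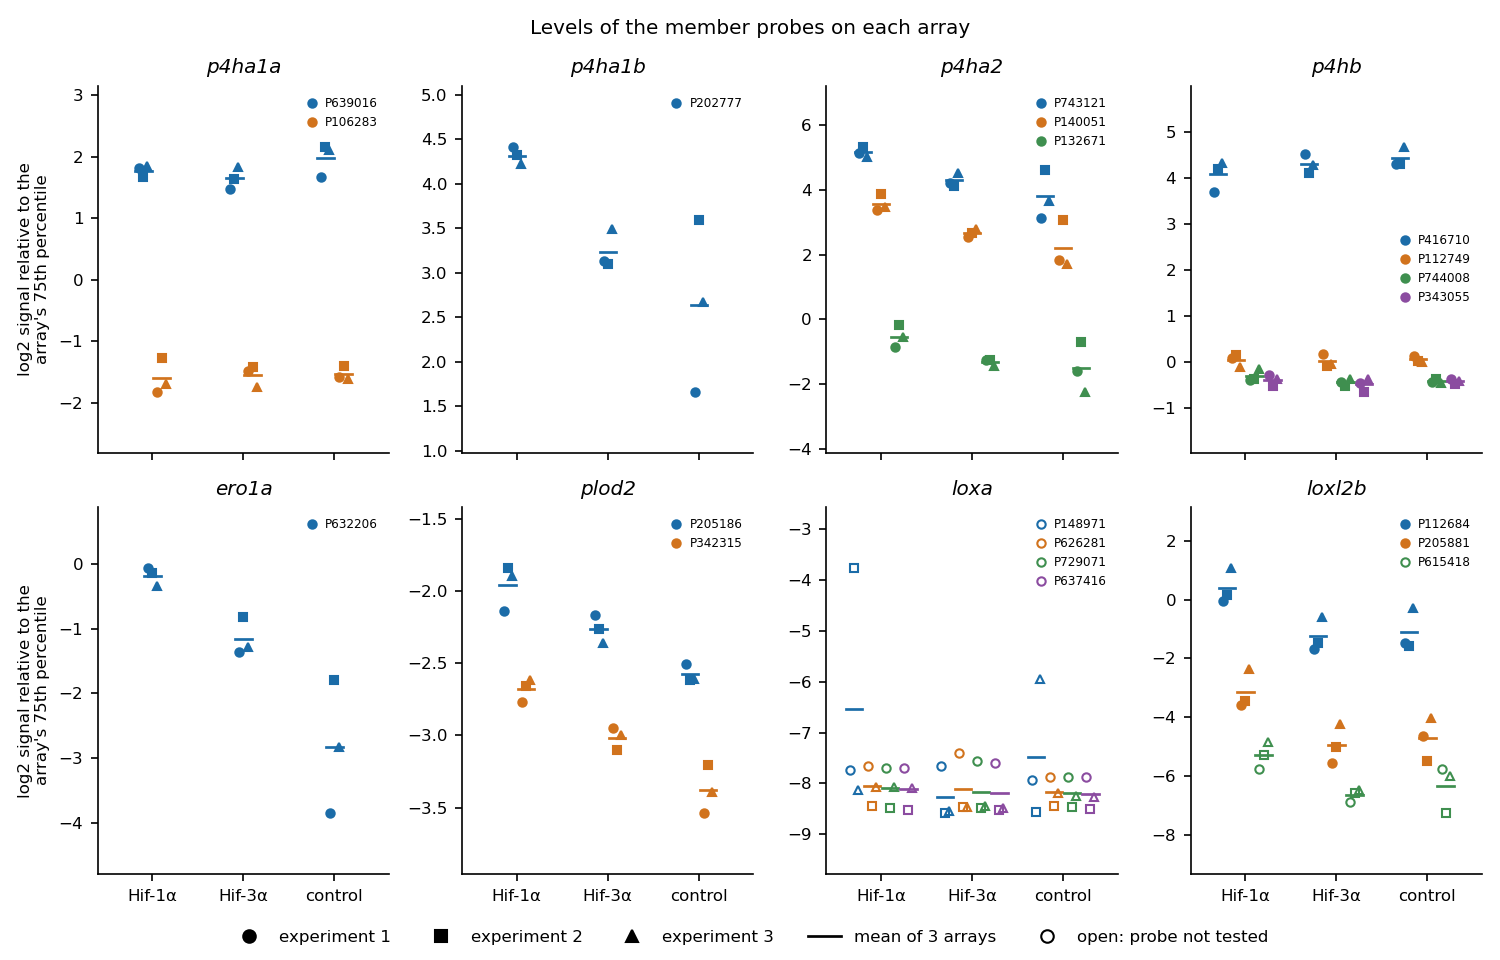
Level of each of the 20 member probes (log2 processed signal relative to the array's 75th percentile) in Hif-1α, Hif-3α and control embryos, 1 panel a gene and 1 colour a probe. Symbols are the 3 experiments, lines are means of 3 arrays, and open symbols are probes not tested. On the p4ha1b and ero1a probes all 3 Hif-1α arrays lie above every other array, while the p4hb and p4ha1a groups overlap, as does the single loxa probe that reached background on any array.

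Among the prolyl hydroxylase alpha subunits, p4ha1b (probe A_15_P202777) stood at 4.41, 4.32 and 4.22 in the Hif-1α embryos, at 3.13, 3.09 and 3.49 in the Hif-3α embryos and at 1.66, 3.59 and 2.67 in controls. The Hif-1α arrays were above all others, the Hif-3α arrays lay within the range of the controls, and control replicate 1 was the lowest array. The gene rose by 1.68 ± 0.40 log2 units or 3.20-fold with Hif-1α (adjusted p = 0.0416). With Hif-3α it differed from controls by 0.60 ± 0.40 (adjusted p = 0.896), with a 95% interval of -0.32 to 1.51. Between experiments the Hif-1α difference from the control of the same experiment was 2.75, 0.73 and 1.55. The p4ha1b call rested on all arrays but 1: it was lost without any single array other than control replicate 2, with an adjusted p of up to 0.122, and the difference was 1.19 without control replicate 1 and 2.15 without control replicate 2.

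For p4ha2, another alpha subunit, the brightest probe (A_15_P743121) stood at 5.15, 5.33 and 5.04 in the Hif-1α embryos, 4.22, 4.13 and 4.54 in the Hif-3α embryos and 3.14, 4.63 and 3.67 in controls. Probe A_15_P140051 stood at 3.39, 3.89 and 3.47 with Hif-1α, 2.54, 2.66 and 2.79 with Hif-3α and 1.84, 3.09 and 1.71 in controls. On both probes the Hif-1α arrays were above all others, and control replicate 2 was the highest control. They rose with Hif-1α by 1.36 ± 0.33 (2.56-fold, adjusted p = 0.0428) and 1.37 ± 0.34 (2.59-fold, adjusted p = 0.0437). The third probe, A_15_P132671, stood at -0.86, -0.19 and -0.55 with Hif-1α, -1.26, -1.25 and -1.43 with Hif-3α and -1.61, -0.69 and -2.24 in controls. There control replicate 2 lay among the Hif-1α arrays, and the difference of 0.98 ± 0.35 did not pass (adjusted p = 0.117). All 3 probes of p4ha2 therefore had the same direction, with 2 past the threshold. With the experiment as a block the third probe passed too (adjusted p = 0.0465).

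The calls of p4ha2 depended on single arrays as those of p4ha1b did. Without any single array other than control replicate 2, neither of the 2 probes passed, with adjusted p up to 0.123 and 0.128. Without control replicate 2 all 3 probes passed, at 1.76, 1.81 and 1.39 log2 units, the third with an adjusted p of 0.0204. Without control replicate 3 the third probe differed by 0.62. With normexp in place of the scanner's background correction it differed by 0.45 after scaling to the 75th percentile and by 0.66 after quantile scaling. In the Hif-3α embryos the 3 probes differed from controls by 0.48, 0.45 and 0.20, all with overlapping groups (adjusted p = 0.898, 0.900 and 0.969).

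p4ha1a, the paralogue of p4ha1b, did not pass on either of its probes. Probe A_15_P639016 stood at 1.81, 1.67 and 1.85 with Hif-1α, 1.47, 1.64 and 1.84 with Hif-3α and 1.67, 2.16 and 2.11 in controls. The groups overlapped, and the Hif-1α difference was -0.21 ± 0.17 (adjusted p = 0.463), with a 95% interval of -0.59 to 0.18. Its dimmer probe, A_15_P106283, differed by -0.07 ± 0.17 with Hif-1α. As a description with no test, since the pair was chosen after its values were seen, the level of p4ha1b minus that of p4ha1a (A_15_P639016) was taken within each array. It was 2.37 to 2.65 with Hif-1α, 1.45 to 1.66 with Hif-3α and -0.01 to 1.43 in controls. Its mean exceeded the control mean by 1.88 with Hif-1α and by 0.93 with Hif-3α.

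**Figure D2:**
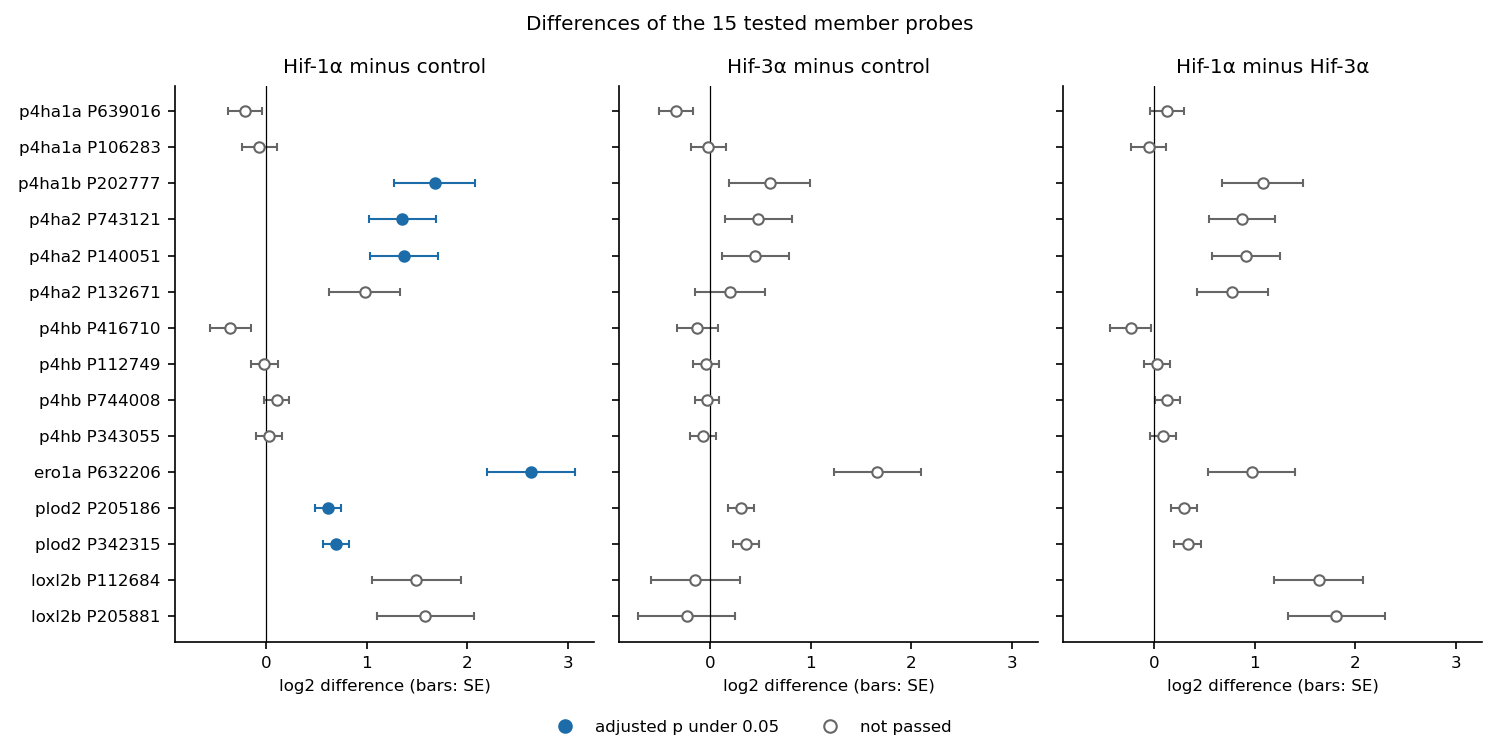
Log2 difference of each of the 15 tested member probes for Hif-1α minus control, Hif-3α minus control and Hif-1α minus Hif-3α, with bars for the SE of the limma fit. Filled points passed at an adjusted p under 0.05. The 6 filled points are all in the Hif-1α against control panel, between 0.61 and 2.63 log2 units.

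p4hb, the beta subunit shared by the prolyl hydroxylases and a general disulfide isomerase, did not pass on any of its 4 probes in either comparison with controls. Its brightest probe, A_15_P416710, stood at 3.69, 4.20 and 4.33 with Hif-1α, 4.51, 4.11 and 4.28 with Hif-3α and 4.31, 4.30 and 4.67 in controls. The groups overlapped, and the difference was -0.35 ± 0.20 with Hif-1α (adjusted p = 0.299) and -0.13 ± 0.20 with Hif-3α (adjusted p = 0.965). The other 3 probes differed from controls by -0.01 to 0.11 with Hif-1α and by -0.06 to -0.03 with Hif-3α. The 95% intervals of those 3 probes reached from -0.31 to 0.38 for Hif-1α and from -0.36 to 0.25 for Hif-3α.

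ero1a, the oxidase that recharges the beta subunit, had the largest difference among the tested member probes. Its probe (A_15_P632206) stood at -0.07, -0.15 and -0.34 with Hif-1α, at -1.36, -0.82 and -1.28 with Hif-3α and at -3.84, -1.79 and -2.82 in controls. The 3 groups did not overlap, with the Hif-1α arrays highest, the Hif-3α arrays between and the controls lowest. ero1a rose by 2.63 ± 0.43 log2 units or 6.21-fold with Hif-1α (adjusted p = 0.0136). With Hif-3α it was 1.66 ± 0.43 or 3.17-fold above controls, with an unadjusted p of 0.00428 and an adjusted p of 0.518, so it did not pass.

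The SD of ero1a was 0.14 with Hif-1α and 0.29 with Hif-3α, against 1.03 in controls, so most of its spread was among the controls. Within the 3 experiments the Hif-1α array exceeded the control by 3.77, 1.65 and 2.49, and the Hif-3α array by 2.48, 0.97 and 1.54. The Hif-1α call was lost without Hif-1α replicate 1 or control replicate 3 (adjusted p up to 0.0535) and kept in the other 7 fits that left out an array. The difference was 2.12 without control replicate 1 and 3.15 without control replicate 2. With normexp in place of the scanner's background correction, it was 1.49 after scaling to the 75th percentile (adjusted p = 0.688). After quantile scaling it was 1.64 (adjusted p = 0.00372). For Hif-3α the adjusted p did not go below 0.101 in any of these fits, the value without control replicate 2, where the difference was 2.18.

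plod2, the lysyl hydroxylase of the chain ends, rose less than the others but with little spread. Probe A_15_P205186 stood at -2.14, -1.84 and -1.90 with Hif-1α, -2.17, -2.26 and -2.36 with Hif-3α and -2.50, -2.61 and -2.61 in controls. Probe A_15_P342315 stood at -2.77, -2.66 and -2.62 with Hif-1α, -2.95, -3.10 and -2.997 with Hif-3α and -3.54, -3.21 and -3.39 in controls. On both probes all 3 groups were separate in scaled level, in the order Hif-1α, Hif-3α, control. With Hif-1α the probes rose by 0.61 ± 0.13 (1.53-fold, adjusted p = 0.0278) and 0.70 ± 0.13 (1.62-fold, adjusted p = 0.0200).

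With Hif-3α the plod2 probes were 0.31 ± 0.13 and 0.36 ± 0.13 above controls (adjusted p = 0.840 and 0.739). These 2 probes and ero1a were the 3 member probes on which every Hif-3α array lay above every control, against 7.03% of all probes. In each of the 3 experiments both plod2 probes were higher than the control of the same experiment with Hif-1α, by 0.36 to 0.78, and with Hif-3α, by 0.10 to 0.58. The processed signals of plod2 were low, between 66.4 and 171 on all arrays. The separation of the groups was read on scaled levels. Before scaling, the Hif-1α and control signals overlapped on both probes. On A_15_P205186 Hif-1α replicate 1 was then the lowest of all arrays, at 114. What part of these small differences came from the scaling was not tested. Where normexp replaced the scanner's background correction before scaling to the 75th percentile, the Hif-1α differences were 0.059 and -0.038, where the median of all probes had shifted to -0.24, so that relative to it the probes were 0.30 and 0.20 higher. With normexp and quantile scaling the differences were 0.304 (adjusted p = 0.0619) and 0.302 (adjusted p = 0.0383), so A_15_P342315 alone passed. The plod2 calls were also lost without single arrays: that of A_15_P205186 without Hif-1α replicate 2 or 3 or any control (adjusted p up to 0.0878), and that of A_15_P342315 without any Hif-1α array, control replicate 1 or control replicate 3 (adjusted p up to 0.0684).

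**Figure D3:**
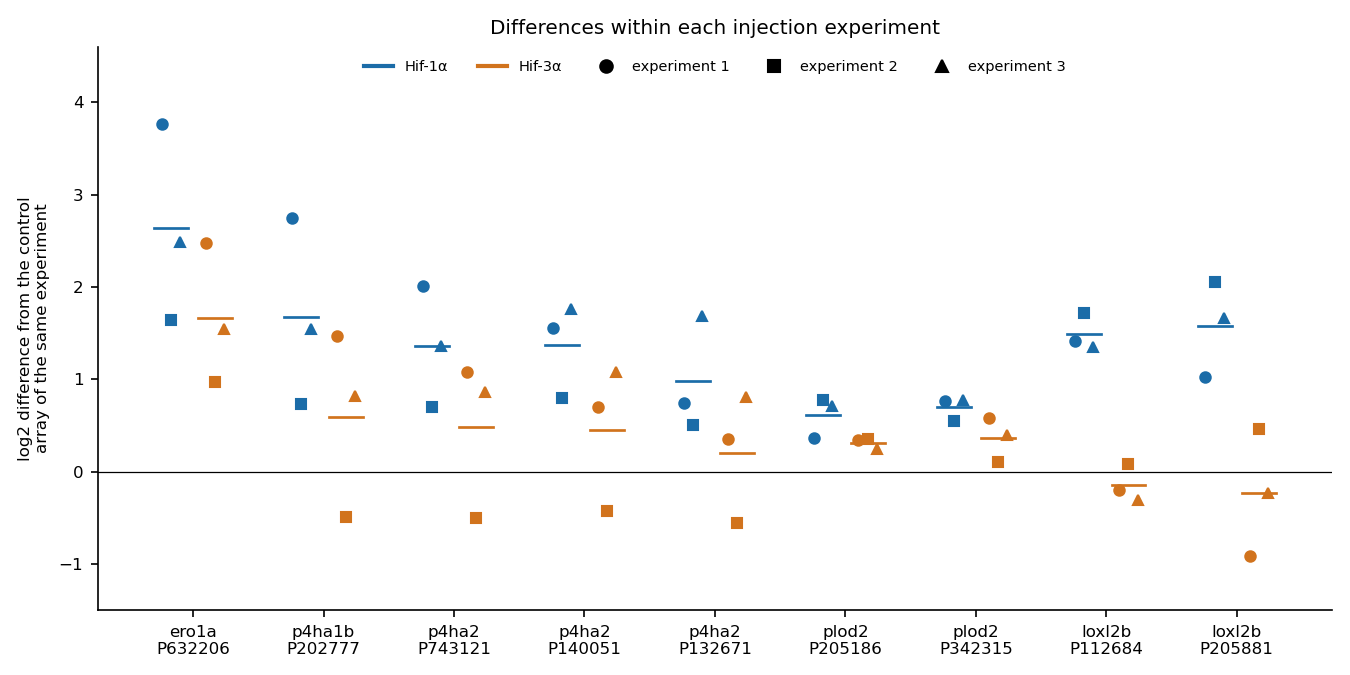
Log2 difference of 9 tested probes from the control array of the same experiment, for Hif-1α (left in each pair) and Hif-3α (right), with symbols for the 3 experiments and lines for means. All Hif-1α points are above 0. The Hif-3α points of p4ha1b and p4ha2 are below 0 in experiment 2, and those of loxl2b lie on both sides of 0.

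Of the crosslinking enzymes, loxl2b, a lysyl oxidase, differed between replicates within a group as well as between groups. Probe A_15_P112684 stood at -0.05, 0.15 and 1.07 with Hif-1α, at -1.67, -1.49 and -0.59 with Hif-3α and at -1.46, -1.57 and -0.28 in controls. Replicate 3 was the highest array of every group, and all 3 Hif-1α arrays were above all others. Probe A_15_P205881 stood at -3.60, -3.44 and -2.35 with Hif-1α, -5.55, -5.03 and -4.25 with Hif-3α (2 of 3 arrays well above background) and -4.63, -5.49 and -4.02 in controls. There too the Hif-1α arrays were above all others, and on both probes the Hif-3α and control arrays overlapped.

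The Hif-1α differences of loxl2b were 1.49 ± 0.44 (2.82-fold, adjusted p = 0.0734) and 1.58 ± 0.48 (2.99-fold, adjusted p = 0.0790), so neither probe passed. Within the experiments the first probe was 1.42, 1.72 and 1.35 higher with Hif-1α than in the control, and the second 1.03, 2.05 and 1.66. With the experiment as a block both probes passed (adjusted p = 0.00207 and 0.00996). That fit called 9 of the 15 member probes higher, the 6 above with the third p4ha2 probe and the 2 loxl2b probes, where 11% of all probes passed upward. Where normexp replaced the background correction, the second probe differed by 0.23 after scaling to the 75th percentile and by 0.54 after quantile scaling. With Hif-3α the 2 probes differed from controls by -0.14 ± 0.44 and -0.23 ± 0.48. The third probe, A_15_P615418, was well above background on no array but Hif-1α replicates 2 and 3, and was not tested. Set against the lowest signal well above background, its Hif-1α mean was 1.61-fold above controls and 1.60-fold above Hif-3α. That mean includes replicate 1, itself not well above background, so these ratios are not strict lower bounds. Within the experiments this probe was 0.017, 1.98 and 1.15 higher with Hif-1α than in the control.

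loxa, the other lysyl oxidase, was near background at this stage. Its probes A_15_P626281, A_15_P729071 and A_15_P637416 were not well above background on any array. Probe A_15_P148971 was well above background on Hif-1α replicate 2, at -3.76, and on control replicate 3, at -5.95. It was at -7.65 or lower on the other 7 arrays, where it was not well above background, so no comparison was made for loxa.

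Compared directly, the Hif-1α embryos had higher levels than the Hif-3α embryos on every tested probe of ero1a, p4ha1b, p4ha2, plod2 and loxl2b. The exception was normexp with the 75th percentile, where the plod2 probes turned to -0.11 and -0.21. The median of all probes was -0.25 there, and relative to it the plod2 probes were 0.15 and 0.04 higher. On the 9 probes of the genes just named, of 15 tested, every Hif-1α array lay above every Hif-3α array, against 9.8% of all probes. None passed with limma, where 0.749% of all probes passed upward. Of the 15 probes, 7 had an unadjusted p under 0.05, as did 5694 of all 31116 probes. The differences were 0.97 ± 0.43 for ero1a (adjusted p = 0.280), 1.08 ± 0.40 for p4ha1b (adjusted p = 0.215), 0.78 to 0.92 for the 3 p4ha2 probes (adjusted p = 0.210 to 0.282) and 0.30 and 0.34 for the plod2 probes (adjusted p = 0.264 and 0.228).

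The loxl2b probes were 1.64 ± 0.44 and 1.81 ± 0.48 higher with Hif-1α than with Hif-3α (adjusted p = 0.126 and 0.123). Within the experiments the first of them differed by 1.62, 1.64 and 1.65. With the experiment as a block these were the 2 member probes that passed (adjusted p = 0.00278 and 0.0218), where 2.41% of all probes passed upward. With only the Hif-1α and Hif-3α arrays in the fit p4ha1b passed (adjusted p = 0.0365), and without control replicate 2 the p4ha2 probe A_15_P140051 did (adjusted p = 0.0490). The comparisons of Hif-1α and of Hif-3α with controls share their control arrays.

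The arrays were scanned on 4 days, and scan day 3 alone held more than 1 group: Hif-1α replicate 2, Hif-3α replicates 2 and 3 and control replicates 2 and 3. Within that day the Hif-1α difference from controls was 2.16 for ero1a, 1.19 for p4ha1b, 1.18, 1.49 and 1.28 for the p4ha2 probes, 0.77 and 0.64 for plod2 and 1.07 and 1.32 for loxl2b. These differences rest on 1 Hif-1α array, which was assumed to vary like the Hif-3α and control arrays of that day, with 2 residual degrees of freedom. None passed there, and that says nothing about whether the calls hold. Blocking by scan day over the 9 arrays gave the same differences, since no other day held 2 groups, and had 3 residual degrees of freedom. With it, 0 member probes passed for Hif-1α against control, where 5 of all probes passed upward. An unadjusted p under 0.05 was found for 6 of the 15 member probes and for 3536 of all 31116. These differences too rest on 1 Hif-1α array. Within the day the Hif-3α difference from controls was 1.26 for ero1a, 0.16 for p4ha1b, 0.12 to 0.33 for p4ha2 and 0.30 and 0.25 for plod2. Hif-1α exceeded Hif-3α within the day by 0.91 for ero1a, 1.03 for p4ha1b, 0.99 to 1.16 for p4ha2, 0.47 and 0.39 for plod2 and 1.18 and 1.199 for loxl2b. Hif-1α replicates 1 and 3 shared a slide as well as a scan day. With the slide as a random block ero1a and both plod2 probes passed, and p4ha1b and the 2 p4ha2 probes did not (adjusted p = 0.0527, 0.0529 and 0.0533). In that fit 1165 of all 31116 probes passed upward and 568 downward.

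**Figure D4:**
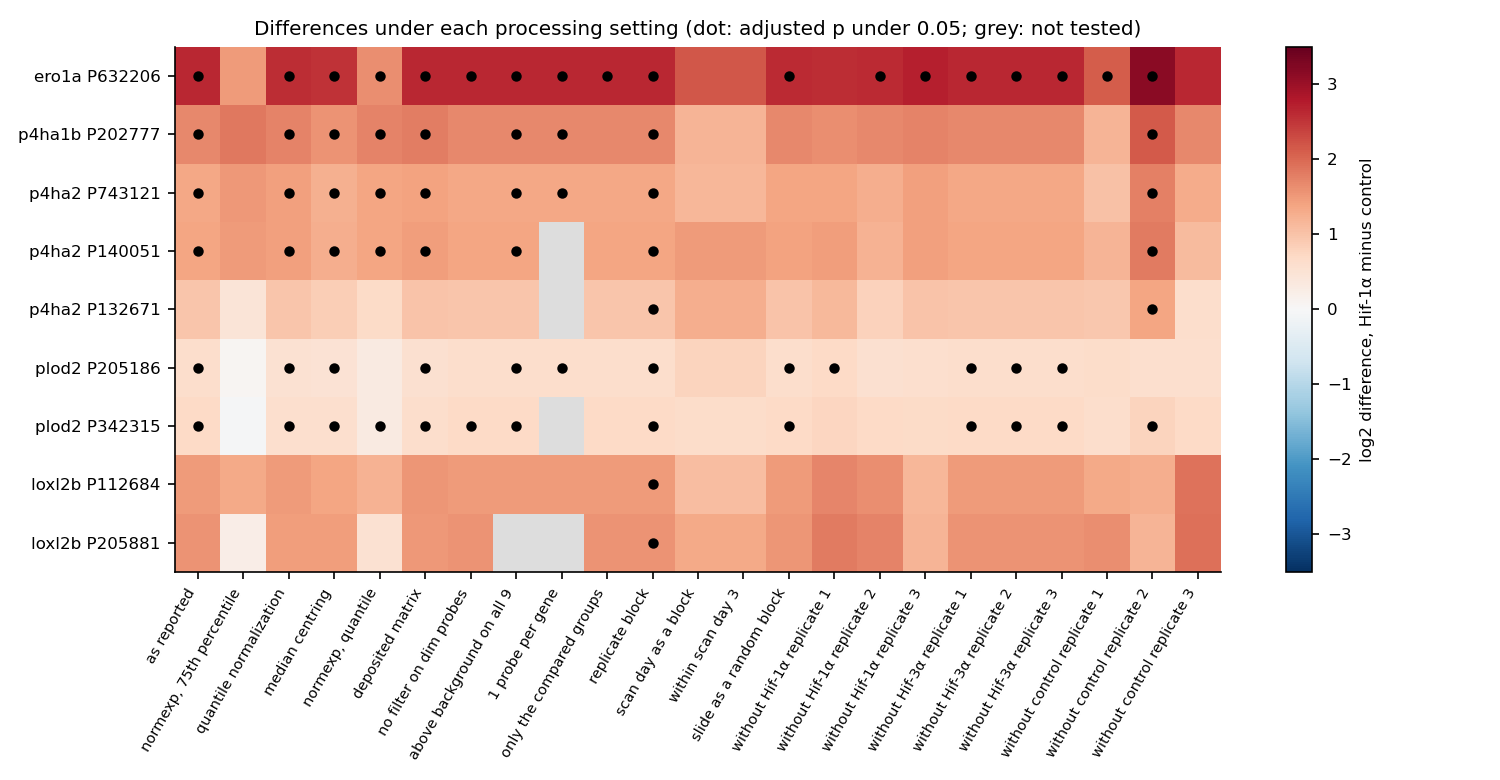
Log2 difference of 9 member probes for Hif-1α minus control as reported and under each of 22 other settings of processing, samples or blocks. Colour is the difference, a dot marks an adjusted p under 0.05 and grey a probe not tested. The sign of the difference holds throughout, except for plod2 A_15_P342315 with normexp and the 75th percentile, at -0.038.

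The rest of the collagen pathway was read from lists of known genes, 1 probe a gene, the brightest. Beside the list counts for Hif-1α against control, 4.97% of all probes passed upward, and 940 of 31116 passed downward. Of 11 tested genes of collagen hydroxylation and glycosylation other than the members, 2 rose with Hif-1α and 0 fell. plod1a, a lysyl hydroxylase, stood at 6.22, 6.41 and 6.03 with Hif-1α, 5.22, 5.01 and 5.33 with Hif-3α and 3.94, 5.15 and 4.55 in controls, and rose by 1.67 ± 0.28 (adjusted p = 0.0135, and up to 0.0512 without Hif-1α replicate 1 or control replicate 3). p4htma, a transmembrane prolyl 4-hydroxylase put in this list by enzyme class, rose by 1.11 ± 0.23 (adjusted p = 0.0263, and up to 0.0843 without any Hif-1α array or control replicate 1). Its action on collagen was not shown here. With the experiment as a block 3 rose, p3h4 of the prolyl 3-hydroxylase family being gained at 0.42 (adjusted p = 0.0494, against 0.169 without the block), where 11% of all probes passed upward. The median of this list was -0.01, and the collagen chaperone serpinh1b differed by -0.21 (adjusted p = 0.532).

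In the other genes of oxidative folding in the endoplasmic reticulum, 1 of 19 rose and 1 fell. The upward count is near the share over all probes, 4.97%. prdx4, a peroxiredoxin that uses the hydrogen peroxide made by Ero1 enzymes, rose by 1.33 ± 0.21 (adjusted p = 0.0111) and passed in all 9 fits that left out an array. pdia7, of the disulfide isomerase family, fell by 0.63 ± 0.15 (adjusted p = 0.0416) and passed in 1 of those 9 fits, that without control replicate 2, with adjusted p up to 0.128 in the others. In the blocked fit 1 rose and 5 fell, where 11% of all probes passed upward and 9.87% downward. Those that fell in that fit were pdia7 and, gained with it, dnajc10, gpx7, pdia6 and tmx2a, whose adjusted p without the block was 0.0936, 0.418, 0.0560 and 0.119. The median of the list was -0.23.

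In the other lysyl oxidases and genes of copper supply, 2 of 6 tested genes rose and 0 fell, with a median of 0.54. loxl5b rose by 1.06 ± 0.14 (adjusted p = 0.00778) and passed in all 9 fits that left out an array. Its Hif-3α values came from 2 arrays, since the spot of Hif-3α replicate 1 was left out as an outlier. loxl2a, the paralogue of loxl2b, rose by 0.56 ± 0.14 (adjusted p = 0.0495) and passed in 0 of those 9 fits (adjusted p = 0.0524 to 0.150). In the blocked fit 3 genes of this list rose, the copper transporter slc31a1 being gained at 0.61 (adjusted p = 0.0454, against 0.159 without the block). The list of 4 oxygen-sensing prolyl hydroxylases and their partners had 2 genes that rose. vhl, which binds hydroxylated Hif alpha subunits, rose by 1.78 ± 0.22 (adjusted p = 0.00494) and passed in all 9 fits, and egln1b, a Hif prolyl hydroxylase, rose by 0.56 ± 0.12 (adjusted p = 0.0331) and passed in 2 of them, with adjusted p up to 0.108. Of the 4, 3 rose in the blocked fit, hif1an, the Hif asparagine hydroxylase, being gained at 0.87 (adjusted p = 0.0395, against 0.0550 without the block).

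The substrates were read in the same way. Of 15 tested collagen chain genes 0 passed with limma for Hif-1α against control, with a median of -0.28, and of 10 genes of procollagen export and trimming 0 passed, with a median of -0.25. In the blocked fit 1 chain gene was higher and 4 were lower, where 9.87% of all probes passed downward. These genes were named after their values were seen, and without the block their adjusted p was 0.0667 to 0.511. col4a5, a chain of basement membranes, was higher by 0.58 (adjusted p = 0.0411). The type I chain col1a2 differed by -1.40 (adjusted p = 0.00443), standing at -1.27, 0.50 and 1.01 with Hif-1α, -0.14, 1.33 and 2.09 with Hif-3α and 0.33, 1.44 and 2.67 in controls. col1a1a and col1a1b, the other type I chains, differed by -0.99 and -0.78 (adjusted p = 0.0234 and 0.0381). The dim probe of col28a2a differed by -1.21 (adjusted p = 0.0395). It stood at -7.16, -5.17 and -4.89 with Hif-1α and at -5.34, -4.99 and -3.27 in controls. In each experiment the Hif-1α level of col1a2 was below the Hif-3α and control levels, and the level was higher in experiment 3 than in experiment 1 in every group. The same fit called 2 genes of export and trimming lower, sparc (-0.60) and pcolce2b (-0.60).

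In none of these 6 lists did a gene pass for Hif-3α against control, with or without the block. Between Hif-1α and Hif-3α, vhl alone passed, higher by 1.25 ± 0.22 with Hif-1α (adjusted p = 0.0429), where 0.749% of all probes passed upward. With the block p4htma, prdx4, loxl5b and vhl were higher with Hif-1α than with Hif-3α. The type I chains col1a1a and col1a2 were lower, at -1.23 and -1.01 (adjusted p = 0.0375 and 0.0290). Of all probes, 2.41% passed upward and 1.75% downward in that fit.

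**Figure D5:**
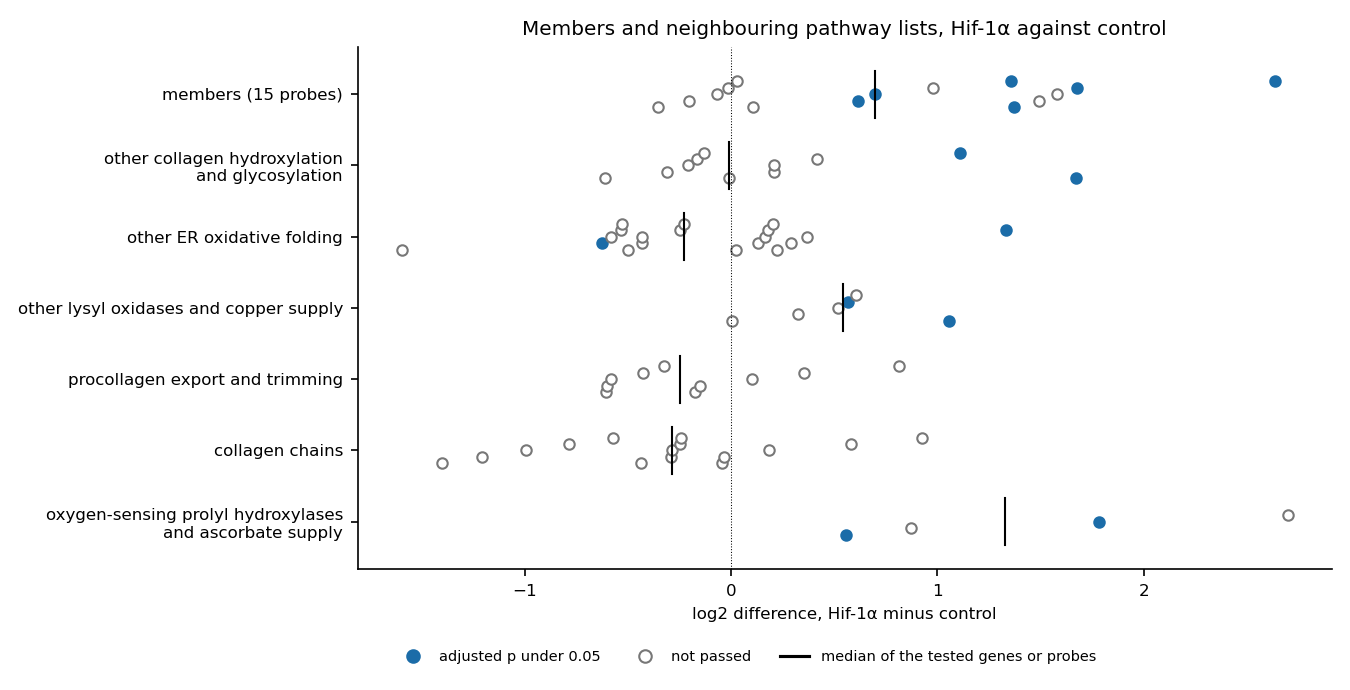
Log2 difference for Hif-1α minus control of the 15 tested member probes and of the tested genes in 6 pathway lists, with filled points for an adjusted p under 0.05 and a bar for the median of each row. The members' median is 0.70, while the collagen chains have a median of -0.28 and no filled point.

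Among 10641 other genes with a symbol, the 3 whose levels over the 9 arrays lay closest to p4ha1b were p4ha2, plod1a and zfyve21. Their root mean square distances from it were 0.193, 0.196 and 0.214 log2 units after centring each probe, against a spread of 0.836 for p4ha1b itself. The nearest genes to ero1a, with a spread of 1.2, were bnip3lb at 0.403, adora2ab at 0.426 and pgam1a at 0.440. For plod2 (A_15_P205186), with a spread of 0.267, they were sirt5 at 0.0723, tmem167b at 0.0810 and phlda1 at 0.0844. These distances describe the 9 arrays, which share their groups and experiments. The probe of adora2ab was dim in controls, at -6.06, -4.24 and -6.10, so its distance from ero1a rests in part on faint signals.

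Markers of cell types were compared beside the members, since a change in the makeup of the embryo would move whole-embryo levels. In the yolk layer list, 3 of 8 tested markers rose with Hif-1α (mxtx1, mxtx2 and gata5) and 0 fell, where 4.97% of all probes passed upward. The mean level of the list was 1.95 to 2.16 with Hif-1α, 0.95 to 1.39 with Hif-3α and 0.45 to 1.45 in controls. Of the 3, mxtx2 was dim, with 3 Hif-1α arrays, 1 Hif-3α array and 1 control array well above background. It met the filter only through the Hif-1α arrays, the group where it was high, so its call carries no weight. The list mean includes it. In the notochord list, a tissue rich in collagen, 1 of 9 markers rose, and the mean was 1.82 to 2.04 with Hif-1α, 1.91 to 2.11 with Hif-3α and 1.76 to 1.94 in controls. The epidermis list had 1 of 8 markers that rose, with means of 5.50 to 5.67, 5.32 to 5.40 and 5.18 to 5.32 in the same order of groups. In the hatching gland list 1 of 7 rose, and its means were 1.78 to 2.16, 0.50 to 1.61 and 1.14 to 1.59. In somite and muscle 1 of 11 rose with Hif-1α and also with Hif-3α (myhz2), and the means were 1.91 to 2.38, 2.37 to 2.70 and 2.01 to 2.46. In the neural, neural crest and blood and vessel lists 0 of 9, 0 of 5 and 0 of 5 passed with limma. The blood and vessel means were -0.05 to 1.34, 0.67 to 1.34 and 0.98 to 1.68, with Hif-1α replicate 1 the lowest. The marker calls were not followed in the fits that left out an array, and lists with a single call are small. The part of these markers in the members' levels was not tested.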

How the data were processed

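The 9 embryo pools were each measured on a one-colour Agilent array. The deposited scanner files hold processed and median signals as intensity values and spot flags as other values, and their headers name Feature Extraction 10.7.3.1. GeneSpring 11.0 was the authors' normalization software, per the labels' design text, and the deposited matrix is on a log2 scale. The labelling protocol names a mouse array, while the file headers give a zebrafish design.

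Probes were named through the RefSeq accession in the files and a RefSeq gene table, which gave 25069 of 43603 probes a symbol. Control spots and spots marked as outliers were left out. The outliers were 437 spots on Hif-3α replicate 1 and 3 to 24 on each other array. Log2 processed signals minus each array's 75th percentile entered a linear model with 1 mean a group over all 9 arrays (limma 3.58.1, R 4.3.3), empirical Bayes moderation and Benjamini-Hochberg adjustment over 31116 probes. The fit was tested on simulated data with independent noise on each array. The simulated arrays shared no experiment, slide or scan-day variation, so that test says nothing about such variation here. The number of arrays limits the precision, and the median SE of a Hif-1α difference was 0.20. The ratios of the dimmest loxl2b probe set the mean of the brighter group against a floor for the dimmer group. Per array, that floor was the higher of its own signal and the lowest signal that was well above background. All member probes are named, up to 3 passing genes of each list by smallest p, and the 3 nearest genes of 3 members. serpinh1b, myhz2, the yolk layer markers and genes called in the blocked fit fall outside that rule and were named after their values were seen. The members and lists were chosen with earlier results of these data known.

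The labels name 3 injection experiments without saying that the replicate number marks them. The deviations of same-numbered arrays from their group means correlated at 0.116 to 0.598 in all 9 pairs, and the numbers were taken to pair the samples. Differently numbered arrays were not correlated for reference, and some same-numbered arrays shared a scan day or a slide. The pairing is therefore an assumption. A fit with the experiment as a block is given where it changes a call, and its calls rest on that assumption. Normexp used the median signal of each spot in place of the planned mean signal, with an offset of 50. The other alternatives were quantile and median scaling, the deposited matrix, filters, 1 probe a gene, only the compared groups, scan day, slide and leaving out each array.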

Additional observations from a re-analysis of the deposited data

Results flagged for a closer look

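Hif-1α and Hif-3α were compared directly, which tests whether their effects against the same controls differ. With the experiment as a block, loxl2b was higher with Hif-1α than with Hif-3α by 1.64 on probe A_15_P112684 and by 1.81 on probe A_15_P205881 (adjusted p = 0.00278 and 0.0218), and neither passed without the block. In the same blocked fit p4htma was higher with Hif-1α by 1.23, prdx4 by 1.11 and loxl5b by 0.74 (adjusted p = 0.0212, 0.0110 and 0.0499), while col1a1a and col1a2 differed by -1.23 and -1.01 (adjusted p = 0.0375 and 0.0290). None of these 5 passed without the block. Of all probes, 2.41% passed upward and 1.75% downward in the blocked fit. vhl was higher with Hif-1α than with Hif-3α by 1.25 without the block (adjusted p = 0.0429), where 0.749% of all probes passed upward. Its mean level was -0.78 with Hif-1α, -2.03 with Hif-3α and -2.56 in controls. It passed in 2 of the 9 fits that left out an array, those without control replicate 2 or 3, with adjusted p up to 0.158 in the others.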

How the results depend on the processing

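For Hif-1α against control, 6 member probes passed as reported. The count was 0 with normexp and the 75th percentile, 2 with no filter on dim probes, 1 with only the compared groups, 0 with the scan day as a block, 0 within scan day 3 and 3 with the slide as a random block. It was 0 to 6 with 1 array left out, 0 being without control replicate 3 and 6 without control replicate 2. With the replicate block it was 9, and with quantile scaling, median centring, the deposited matrix and normexp with quantile scaling it was 5 or 6. For Hif-1α against Hif-3α, 0 passed as reported, 1 with only the compared groups, 2 with the replicate block and 0 to 1 with 1 array left out. For Hif-3α against control 0 passed in every setting, the replicate block included. Fewer arrays and blocks leave fewer residual degrees of freedom, and the cause of the other changes was not tested. Over all probes, 1548 were higher and 940 lower with Hif-1α, against 1245 and 1754 after median centring, where the median of all probes was -0.12, and 11 and 0 with normexp and the 75th percentile. It was 1343 and 994 with quantile scaling, 1380 and 995 with the deposited matrix and 1468 and 1195 with normexp and quantile scaling. It was 788 and 259 with no filter, 862 and 229 with only the compared groups, 5 and 0 in the fit blocked by scan day, 0 and 0 within scan day 3, 3433 and 3070 with the replicate block, and 461 to 1616 higher and 130 to 1040 lower with 1 array left out. With the slide as a random block, 1165 were higher and 568 lower. For Hif-1α against Hif-3α, 233 were higher and 59 lower, against 749 and 545 with the replicate block, 351 and 166 with normexp and quantile scaling, 26 and 4 blocked by scan day, 2 and 3 within scan day 3, 10 and 3 with normexp and the 75th percentile, 137 and 10 with no filter, and 100 to 317 higher and 6 to 126 lower with 1 array left out, the lowest being without Hif-3α replicate 2. For Hif-3α against control, 10 were higher as reported and 1 to 24 under the alternatives. Signs turned in 5 of 537 values of the members given a direction. With normexp and the 75th percentile these were plod2 A_15_P342315 at -0.038 for Hif-1α against control, both plod2 probes at -0.11 and -0.21 for Hif-1α against Hif-3α, and p4ha2 A_15_P132671 at -0.028 for Hif-3α against control, which was -0.16 to 0.61 with 1 array left out, -0.16 being without control replicate 3. The small differences of p4ha1a, p4hb and, for Hif-3α, loxl2b, given without a direction, turned in 46 of 426. Dim signal limits loxa, the dimmest loxl2b probe and plod2, and among the other genes named col28a2a, mxtx2 and adora2ab.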

Other observations

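The controls differed among themselves on the member probes in more than 1 way. On ero1a, p4ha1b and the brightest p4ha2 probe the SDs were 0.14, 0.10 and 0.15 with Hif-1α, 0.29, 0.22 and 0.21 with Hif-3α and 1.03, 0.96 and 0.76 in controls, where control replicate 1 was lowest and control replicate 2 highest. On the other p4ha2 probes control replicate 3 was lowest. On the 2 tested loxl2b probes control replicate 3 was highest and control replicate 2 lowest, with SDs of 0.60 and 0.68 with Hif-1α, 0.58 and 0.66 with Hif-3α and 0.72 and 0.74 in controls. On the brightest plod2 probe the SDs were 0.16, 0.10 and 0.06 in Hif-1α, Hif-3α and control embryos.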
